A study of Mus musculus with 18 samples.

Results

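The genes Lcn2, Saa3, S100a8, S100a9, Hp, Cp, Chil1, Chil3, Ptx3 and Camp encode acute-phase, alarmin and chitinase-like proteins and were followed by gene name through a count table of 21734 protein-coding genes. All 10 had a row, and 9 of the 10 passed the filter on low counts that 11357 genes passed. The RNA came from bone marrow-derived macrophages (BMDMs), which are macrophages grown from marrow with the growth factor M-CSF. Marrow was taken from mice of a mixed 129/B6 strain, 3 mice of each genotype, and was cultured for 8 to 9 days with M-CSF at 10 ng/ml. The culture methods of the study give an age of 6 to 7 months. Its mass spectrometry methods, for fractions of the same replicates, give a younger age, so the age of these mice is not settled. The 3 genotypes were wild type (WT), a knockout that lacks the mir-146a precursor (KO) and a non-seed swap (3'F), whose miR-146a keeps its 5′ part while the 3′ part is altered. Cultures of each genotype received fresh medium alone (resting) or with 1 ng/ml LPS, the endotoxin of Gram-negative bacteria, and were harvested after 16 h. The 6 groups thus held 3 libraries each, 18 in all. The 3'F allele was made in embryonic stem cells, and whether each line descends from 1 targeted clone is not given in the sources used here. The methods of the study state that founders of each line were crossed back to C57BL6/J 3 times. The KO and 3'F lines were kept as separate colonies, and wild types were drawn from both. In comparisons of KO with 3'F the allele and the line therefore cannot be told apart. From which line each WT mouse here came is not given. The table holds 0 rows for the microRNA gene itself, so these counts do not check the genotype labels.

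Acute-phase proteins are made in quantity, mostly by the liver but also by macrophages, when microbial products or cytokines such as IL-6, IL-1 and TNF are sensed, through the transcription factors NF-κB, C/EBP and STAT3. Alarmins of the S100 family and antimicrobial granule proteins are stored in large amounts by neutrophils and monocytes, and chitinase-like proteins are secreted by activated macrophages without cutting chitin. miR-146a is induced by NF-κB and restrains signalling from Toll-like receptors through Irak1 and Traf6, so these genes lie downstream of the pathway it damps.

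The mature sequences show what the genotypes share and where they part. The wild-type strand is encoded on the minus strand of chr11:43374435-43374456 (GRCm38, RefSeq), and the 3'F strand is the one designed for this allele as a synthetic mimic. Capitals mark the seed, bases 2 to 8, which pairs with targets.
miR-146a-5p, WT: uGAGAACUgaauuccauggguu
miR-146a-5p, 3'F: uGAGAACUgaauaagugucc
The first 12 bases were identical, seed included, and all 8 bases from position 13 to 20 differed. The study states that the last 2 positions of the wild-type strand were conserved in the design, and the 20 bases printed for 3'F end before them. The longest annotated 3′ UTR of each of the 10 genes (GENCODE M21, from 56 bases in Camp to 1956 in Saa3) held 0 matches to bases 2 to 8 and 0 to bases 2 to 7. Among the 11261 tested genes with an annotated 3′ UTR, 12.6% held the former (AGTTCTC) and 33.5% the latter (GTTCTC). These shares were not matched for UTR length. The UTRs of Lcn2, S100a8, S100a9, Hp, Chil3 and Camp had 56 to 299 bases, so the lack of matches is a description only.

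Upstream sequence was read for 9 of the 10 genes, all but Hp, from RefSeq windows of 250 bases before a transcription start (GRCm38.p6). Windows are shown for the acute-phase genes Saa3, Lcn2 and Cp, which moved most with LPS, and for Chil1, the gene with the widest spread between replicates. Capitals mark matches, on either strand, to a C/EBP motif (TTGCNNAA), an AP-1 motif (TGANTCA), a STAT motif (TTCNNNGAA), a TATA motif (TATAAA) or the NF-κB consensus.
Saa3, chr7:46715677-46715926, minus strand: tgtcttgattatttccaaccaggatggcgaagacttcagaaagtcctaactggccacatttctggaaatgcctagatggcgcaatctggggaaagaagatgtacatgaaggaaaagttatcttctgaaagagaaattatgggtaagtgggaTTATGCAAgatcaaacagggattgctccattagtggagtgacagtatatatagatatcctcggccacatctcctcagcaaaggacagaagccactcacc
Lcn2, chr2:32387740-32387989, minus strand: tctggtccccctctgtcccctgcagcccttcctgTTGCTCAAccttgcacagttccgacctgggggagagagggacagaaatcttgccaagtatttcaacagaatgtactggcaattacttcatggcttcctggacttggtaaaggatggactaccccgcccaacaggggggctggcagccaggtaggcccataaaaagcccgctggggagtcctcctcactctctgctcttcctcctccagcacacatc
Cp, chr3:19956999-19957248, plus strand: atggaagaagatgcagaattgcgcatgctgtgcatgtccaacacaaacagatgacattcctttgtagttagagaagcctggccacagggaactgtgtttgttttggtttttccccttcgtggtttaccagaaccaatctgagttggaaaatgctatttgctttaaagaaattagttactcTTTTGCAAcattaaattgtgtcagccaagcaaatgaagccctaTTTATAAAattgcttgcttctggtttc
Chil1, chr1:134181906-134182155, plus strand: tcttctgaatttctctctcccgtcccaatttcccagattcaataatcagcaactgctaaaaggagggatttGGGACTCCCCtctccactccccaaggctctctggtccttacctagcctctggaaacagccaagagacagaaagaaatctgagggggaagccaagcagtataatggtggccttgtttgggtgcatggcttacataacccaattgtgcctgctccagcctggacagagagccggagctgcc
The capitals in Saa3 and Lcn2 are single C/EBP matches, those in Cp are a C/EBP match and 2 overlapping TATA matches, and those in Chil1 are the NF-κB consensus. A C/EBP match was found in 5 of the 10 windows of these genes (Saa3, Lcn2, S100a9, Ptx3 and 1 of 2 Cp windows), against 9.56% of 32851 windows of all genes. Of the windows of these genes the NF-κB consensus was found in that of Chil1 alone, against 3.90% of all windows. The AP-1 motif was found only in the Cp window not shown, against 6.75%, and the STAT motif only in that of Chil3, against 7.02%. The TATA motif was found in the Cp window shown and in that of S100a8, against 12.4%. These matches describe the letters only.

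Total counts ran from 4071084 to 19818043 per library. All 10 macrophage markers (Adgre1, Csf1r, Cd14 and others) passed the filter, and their summed level was 32642 CPM (counts per 1000000 of the TMM-scaled library) or more in every library. Lyz2 made up most of this sum. In the lowest library, resting WT replicate 2, it had 26461 CPM, beside 1247 of Adgre1, 1848 of Csf1r and 654 of Cd14. Erythroid, mast cell, T cell and B cell markers summed to 1.17 CPM or less, dendritic cell markers to 4.45 CPM or less and stromal markers to 3.51 CPM or less. Along the first principal component, which carried 58.9% of the variance of all tested genes, resting KO replicate 3 lay among the LPS libraries (20.5, against −67.7 to −30.4 in the other resting libraries), although it is labelled resting. Resting 3'F replicate 3 had the fewest counts and stood apart on the second component (59.5, against −35.7 to 18.8 elsewhere). Beside many of the calls and sizes that change without one of these 2 libraries, though not all, the value without it is given. In bulk RNA, fewer cells of a type and less RNA per cell cannot be told apart.

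Per kb of exon, Saa3 was the highest of the 10 in WT cells in both states, at 23.1 CPM per kb at rest and 4114 with LPS. At rest S100a8 (21.7 CPM per kb), S100a9 and Hp (5.64) followed, and Chil3, Camp, Lcn2, Cp, Ptx3 and Chil1 were each below 1. With LPS the order became Saa3, Hp (466), S100a8 (47.8), Lcn2 (27.9), S100a9 (13.2), Cp (11.5) and Camp (2.81). The 10 genes together took 0.824% to 1.32% of all counts in WT LPS libraries, 1.11% to 1.23% in 3'F LPS libraries and 2.22% to 2.63% in KO LPS libraries. At rest the share was 0.00416% to 0.0227% in 8 of 9 libraries and 0.151% in resting KO replicate 3.

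**Figure D1:**
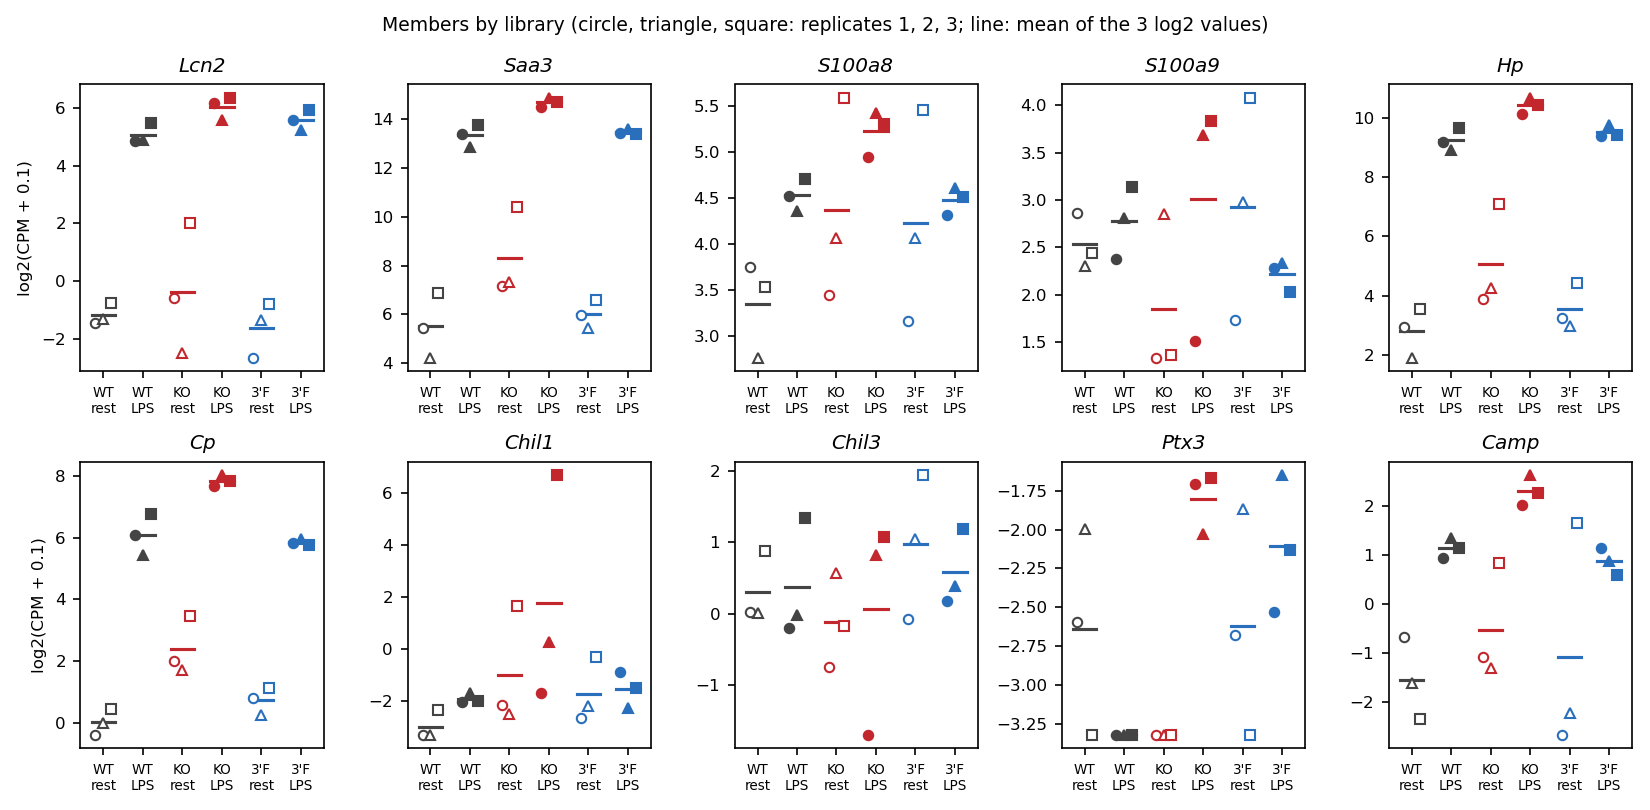
Level of each of the 10 genes in each library, as log2(CPM + 0.1), for resting (open) and LPS (filled) cells of each genotype, with the mean of the 3 log2 values as a line. Saa3, Hp, Cp and Lcn2 separate by LPS in each genotype, and resting KO replicate 3 (open red square) is the highest resting KO library for Saa3 (1344 CPM), Hp (135) and Cp (10.9).

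LPS raised the same 4 genes, Saa3, Hp, Cp and Lcn2, in all 3 genotypes. Chil1 is left out of the counts that follow, because its high value in a KO LPS library was known when the genes were chosen, which leaves 8 tested genes. In WT cells 5 of the 8 were called at an adjusted p under 0.05, all higher, against 28.5% of all tested genes in either direction. In KO cells 5 of 8 were called, all higher, against 26.9%, and in 3'F cells 4 of 8, all higher, against 31.2%. Unlike Saa3, Hp and Cp, the genes Lcn2 and Camp passed the filter on low counts only because of their LPS libraries. Their calls as higher with LPS were favoured by that filter and are descriptions only. Called genes come from edgeR's quasi-likelihood test of all 18 libraries with Benjamini-Hochberg adjustment over the 11357 genes. The median log2 fold change of the 8 genes was 4.55 in WT, 3.72 in KO and 3.49 in 3'F, beside 0.02, 0.02 and −0.01 over all tested genes.

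Saa3, a serum amyloid A made by macrophages and other tissues outside the liver (chr7:46711998-46715700, minus strand), had 43.6, 18.4 and 118 CPM in the resting WT libraries and 10853, 7511 and 13797 CPM with LPS. It had 145, 163 and 1344 CPM in resting KO libraries and 23399, 30321 and 26838 with LPS. In 3'F cells the values were 62.5, 44.0 and 96.9 CPM at rest and 10978, 12316 and 10819 with LPS. No resting library reached any LPS library of its genotype, and Saa3 alone took 2.09% to 2.46% of all counts in KO LPS libraries. The log2 fold change was 7.48 ± 0.92 (SE) in WT (adjusted p = 2.2e-05), 5.61 ± 0.84 in KO (0.000127) and 7.40 ± 0.92 in 3'F (2.09e-05). The KO value without resting KO replicate 3 was 7.45. Saa1 and Saa2, in the same cluster, are near-identical to each other. Since low mapping qualities were left out in counting, reads that Saa1 and Saa2 share may be missing from their counts.

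Hp, haptoglobin, which binds free haemoglobin (chr8:109575128-109579172, minus strand), had 7.55, 3.61 and 11.6 CPM in resting WT cells and 586, 479 and 815 with LPS. KO cells held 14.8, 19.0 and 135 CPM at rest and 1119.9, 1652 and 1397 with LPS, and 3'F cells 9.37, 7.82 and 21.5 at rest and 667, 869 and 695 with LPS. The groups did not overlap between states in any genotype. The response was 6.38 ± 0.78 on the log2 scale in WT (adjusted p = 2.1e-05), 4.64 ± 0.71 in KO (0.000147) and 5.94 ± 0.77 in 3'F (3.2e-05). Leaving out resting KO replicate 3 made the KO response of Hp 6.36.

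Cp, ceruloplasmin, the copper-carrying ferroxidase of plasma (chr3:19957054-20009145, plus strand, overlapping Hps3 on the other strand, which strand-specific counting separates), was nearly silent at rest. It had 0.657, 0.904 and 1.26 CPM in resting WT cells and 67.3, 43.7 and 109 with LPS. KO cells had 3.96, 3.21 and 10.9 CPM at rest and 203, 263 and 230 with LPS. In 3'F cells it had 1.64, 1.10 and 2.11 CPM at rest and 56.2, 62.3 and 54.6 with LPS. Every LPS library thus stood far above every resting one, and the log2 response was 6.32 ± 0.47 in WT (adjusted p = 1.39e-07), 5.33 ± 0.40 in KO (1.36e-07) and 5.28 ± 0.45 in 3'F (5.46e-07). The KO response of Cp was 6.00 without resting KO replicate 3.

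Lcn2, lipocalin 2, which starves bacteria of iron by binding their siderophores (chr2:32384633-32388252, minus strand), had 4, 4 and 5 raw counts in resting WT libraries and 415, 439 and 608 with LPS. KO libraries had 9, 1 and 35 counts at rest and 1046, 664 and 1161 with LPS, and 3'F libraries 1, 5 and 2 at rest and 653, 688 and 481 with LPS. Resting counts this low set the size of the fold change, which was 6.64 ± 0.68 on the log2 scale in WT (adjusted p = 3.53e-06), 5.72 ± 0.58 in KO (2.28e-06) and 7.83 ± 0.75 in 3'F (1.54e-06). The KO fold change of Lcn2 without resting replicate 3 was 7.60. In CPM the LPS levels were 34.5 ± 8.74 (SD, n = 3) in WT, 67.6 ± 17.8 in KO and 49.1 ± 12.1 in 3'F.

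Camp, the cathelicidin antimicrobial peptide (chr9:109847379-109849617, minus strand), was low throughout. It had 0.525, 0.226 and 0.0967 CPM in resting WT cells and 1.81, 2.46 and 2.13 with LPS, a log2 fold change of 2.78 ± 0.89 (adjusted p = 0.0287). KO cells had 0.371, 0.306 and 1.68 CPM at rest and 3.99, 6.15 and 4.71 with LPS, a log2 fold change of 2.80 ± 0.77 (adjusted p = 0.013), or 3.82 without resting KO replicate 3 (0.0023). In 3'F cells resting replicate 3, with 13 counts or 3.04 CPM, exceeded all 3 LPS libraries (2.12, 1.75 and 1.41), while the other resting libraries had 0.0564 and 0.116. The 3'F response missed the threshold with that library (adjusted p = 0.16) and passed it without (log2 fold change 4.21, adjusted p = 0.000893). The WT call was lost when any 1 of 4 libraries was left out (adjusted p up to 0.0948), and the KO call without resting KO replicate 1 or 2 (0.0675 and 0.0618).

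S100a8 and S100a9, which pair as calprotectin, a metal-binding alarmin that signals through TLR4, lie 22596 bases apart on chromosome 3 (chr3:90668978-90670035, plus strand, and chr3:90692632-90695721, minus strand). S100a8 had 13.4, 6.70 and 11.5 CPM in resting WT cells and 23.0, 20.5 and 26.2 with LPS, which did not overlap. KO cells had 10.8, 16.7 and 48.3 CPM at rest and 30.9, 43.1 and 39.4 with LPS, and 3'F cells 8.92, 16.7 and 44.0 at rest and 19.9, 24.4 and 22.8 with LPS. In both of these genotypes resting replicate 3, the library that stands apart, was above every LPS library. The log2 difference was 1.14 ± 0.51 in WT (adjusted p = 0.11), 0.60 ± 0.49 in KO (0.394) and 0.05 in 3'F (0.957), and none was called. Without resting KO replicate 3 alone the KO difference was called (1.46, 0.0181). Without both of those libraries S100a8 was called higher with LPS in WT (log2 fold change 1.10, adjusted p = 0.00254), KO (1.39, 0.000875) and 3'F (0.76, 0.0441).

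S100a9 was likewise not called with LPS in any genotype in the fit of all 18 libraries. It had 7.16, 4.82 and 5.32 CPM in resting WT cells and 5.09, 6.89 and 8.72 with LPS, and the 2 groups overlapped. KO LPS libraries had 2.75, 12.7 and 14.2 CPM, beside 2.41, 7.11 and 2.47 at rest. In 3'F cells the values were 3.22, 7.76 and 16.9 CPM at rest and 4.76, 4.93 and 3.98 with LPS. The 16.9 is resting 3'F replicate 3, and the other resting values lay on both sides of the LPS values. The log2 differences were 0.25 ± 0.57 in WT (adjusted p = 0.789), 1.29 ± 0.58 in KO (0.111) and −0.87 ± 0.59 in 3'F (0.276), none called. In KO the call was made without KO LPS replicate 1 (log2 fold change 1.74, adjusted p = 0.0245) and without resting KO replicate 2 (2.02, 0.041).

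The ratio of S100a8 to S100a9 counts, each per base of exon, was 2.01, 1.49 and 2.32 in resting WT libraries and 4.86, 3.20 and 3.22 with LPS. In 3'F cells it was 2.98, 2.32 and 2.80 at rest and 4.49, 5.31 and 6.17 with LPS. Resting and LPS libraries did not overlap in either genotype. KO cells did not divide in this way, with 4.82, 2.53 and 21.0 at rest and 12.1, 3.63 and 2.98 with LPS. The 21.0 is resting KO replicate 3, with 430 counts of S100a8 and 22 of S100a9, and the 12.1 is KO LPS replicate 1, with 449 and 40. The mean log2 ratio with LPS differed from that at rest by 0.95 in WT and 0.98 in 3'F (two-sided exact permutation test, p = 0.1 each, the smallest that 3 libraries against 3 allow), and by −0.32 in KO (p = 0.7). Adjusted over the 9 comparisons of this ratio the lowest p was 0.3.

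Chil1, the chitinase-like protein also known as BRP-39 or YKL-40 (chr1:134182176-134190181, plus strand), was at 0 to 6 counts in all 12 WT and 3'F libraries. Resting KO libraries had 2, 1 and 27 counts, and KO LPS libraries had 3, 15 and 1442. In CPM the KO LPS libraries stood at 0.207, 1.09 and 103, and KO LPS replicate 1 overlapped the resting KO and the 3'F LPS libraries. Replicate 3 was therefore the highest KO library in both states, and 1 library of 18 held nearly all reads of the gene. Since this library was known when the genes were chosen, and Chil1 passed the filter on low counts only through the KO libraries, its values are given as a description with no test.

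Chil3, also known as Ym1, a lectin that marks alternatively activated macrophages (chr3:106147554-106167564, minus strand), stayed between 3 and 34 counts in all 18 libraries and was called in no comparison. Its highest level was 3.75 CPM in resting 3'F replicate 3 and its lowest 0.207 CPM in KO LPS replicate 1, and LPS changed it by 0.21 ± 0.68, 0.54 ± 0.70 and −0.45 ± 0.68 on the log2 scale in WT, KO and 3'F (adjusted p = 0.855, 0.614 and 0.648). Ptx3, a long pentraxin that opsonises microbes (chr3:66219910-66225805, plus strand, overlapping Veph1 on the other strand), had 4 counts or fewer in every library and was not tested. It was not detectable at this depth beyond a few reads, and 3 counts, taken as the floor, correspond to 0.164 to 0.702 CPM depending on the library.

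**Figure D2:**
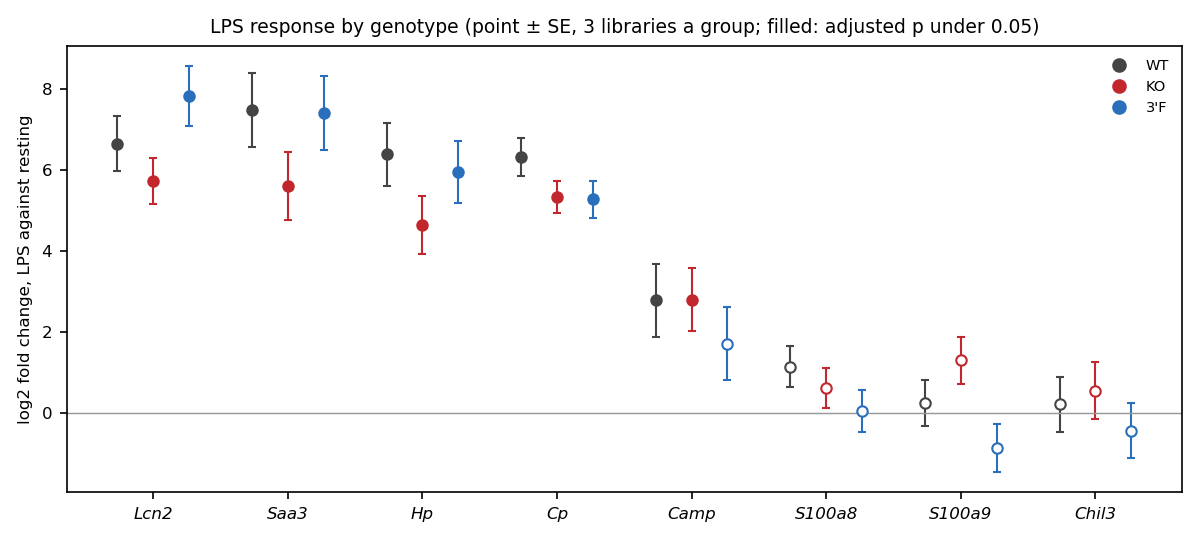
Log2 fold change of LPS against resting cells for 8 of the genes in WT, KO and 3'F cells, with its standard error. Filled points passed an adjusted p of 0.05; Lcn2, Saa3, Hp and Cp lie between 4.64 and 7.83 in all 3 genotypes, while S100a8, S100a9 and Chil3 lie between −0.87 and 1.29.

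KO cells at rest held more Saa3, Hp and Cp than WT cells at rest. These were 3 of the 8 tested genes called, all higher, against 9.4% of all tested genes in either direction. The log2 differences were 3.20 ± 0.76 for Saa3 (adjusted p = 0.0149), 2.89 ± 0.69 for Hp (0.0151) and 2.65 ± 0.50 for Cp (0.00469). For these 3 of the 8 genes the 3 KO libraries lay above the 3 WT libraries, against 26.8% of all tested genes without overlap in either direction. Against resting 3'F cells the same 3 genes were called, all higher, against 12.9% of all tested genes: Saa3 by 3.03 ± 0.75 (adjusted p = 0.018), Hp by 2.21 ± 0.67 (0.042) and Cp by 1.95 ± 0.48 (0.0169). The comparisons with WT and with 3'F share the KO libraries. The 3'F and KO libraries of Hp overlapped, since resting 3'F replicate 3, at 21.5 CPM, lay above 2 of the KO libraries.

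Much of the size came from resting KO replicate 3, the library that lies among the LPS libraries. Without it the differences from WT were 1.36 for Saa3 (adjusted p = 0.111) and 1.17 for Hp (0.0956), and 1 of the 8 genes, Cp, was still called, against 7.18% of all tested genes. Against 3'F, 0 of the 8 were called without it, against 8.19% of all tested genes, with differences of 1.20 for Saa3 (0.127), 0.53 for Hp (0.405) and 1.28 for Cp (0.0625). The directions did not change, and the other KO libraries, at 145 and 163 CPM of Saa3 and 3.96 and 3.21 CPM of Cp, were each above every resting WT library. The Saa3 and Hp calls against WT were also lost without resting WT replicate 1 (0.068 and 0.0596) or 2 (0.0678 and 0.0777). Against 3'F all 3 calls were lost without resting 3'F replicate 2 (adjusted p = 0.0511 for Saa3, 0.106 for Hp and 0.0577 for Cp), and that of Hp without resting 3'F replicate 1 (0.0907).

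Lcn2 (1.52 CPM in KO against 0.349 in WT), S100a8 (25.3 against 10.5) and Camp (0.787 against 0.283) were not called at rest, and in each the mean was carried by resting KO replicate 3. That library had 3.93 CPM of Lcn2, where the others had 0.556 and 0.0765. S100a9 and Chil3 had log2 differences of −0.52 ± 0.59 and −0.40 ± 0.72 (adjusted p = 0.661 and 0.802).

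With LPS the test called 1 of the 8 genes between KO and WT, Cp, which was higher in KO, against 4.79% of all tested genes in either direction. Cp stood at 232 ± 29.9 CPM (SD, n = 3) in KO and 73.3 ± 33.0 in WT, a log2 difference of 1.66 ± 0.33 (adjusted p = 0.00896). Against 3'F, at 57.7 ± 4.04 CPM, the fold was 4.01 (adjusted p = 0.00401). The lowest KO library, at 203 CPM, was above the highest WT library, at 109, and the highest 3'F library, at 62.3. The WT comparison lost its call without WT LPS replicate 2 (1.40, adjusted p = 0.0545), and the 3'F comparison kept it in every fit.

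For 6 of the 8 genes the KO LPS libraries did not overlap the WT LPS libraries, all higher, against 33.0% of all tested genes in either direction. Besides Cp these were Saa3, Hp, Lcn2, S100a8 and Camp. Saa3 was 26853 ± 3461 CPM in KO against 10720.3 ± 3145 in WT (log2 difference 1.32 ± 0.70, adjusted p = 0.348). Hp was 1389.7 ± 266 against 627 ± 172 (1.15 ± 0.61, 0.352). Lcn2 differed by 0.97 ± 0.42 (0.227), Camp by 1.21 ± 0.67 (0.373) and S100a8 by 0.70 ± 0.49 (0.517). None of these 5 was called in the fit of all 18 libraries. Without the 2 resting libraries that stand apart 5 of 8 were called against WT (Camp, Cp, Hp, Lcn2 and Saa3), beside 14.2% of all tested genes in the same fit, with an adjusted p of 0.00778 for Hp, 0.0126 for Lcn2, 0.00862 for Camp and 0.0488 for Saa3. In a fit of the KO and WT LPS libraries alone 6 of 8 were called, these 5 and S100a8 (adjusted p = 0.026), beside 9.16% of all tested genes in that fit.

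Against 3'F LPS libraries the test again called 1 of the 8, Cp, higher in KO, against 3.88% of all tested genes. The KO libraries did not overlap the 3'F libraries in 5 of 8 genes (Saa3, S100a8, Hp, Cp and Camp), all higher, against 34.3% of all tested genes. Without the 2 resting libraries 3 of 8 were called (Camp, Cp and Hp), beside 12.2% of all tested genes in that fit. With the KO and 3'F LPS libraries alone 5 of 8 were called (Camp, Cp, Hp, S100a8 and Saa3), beside 14.7%.

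**Figure D3:**
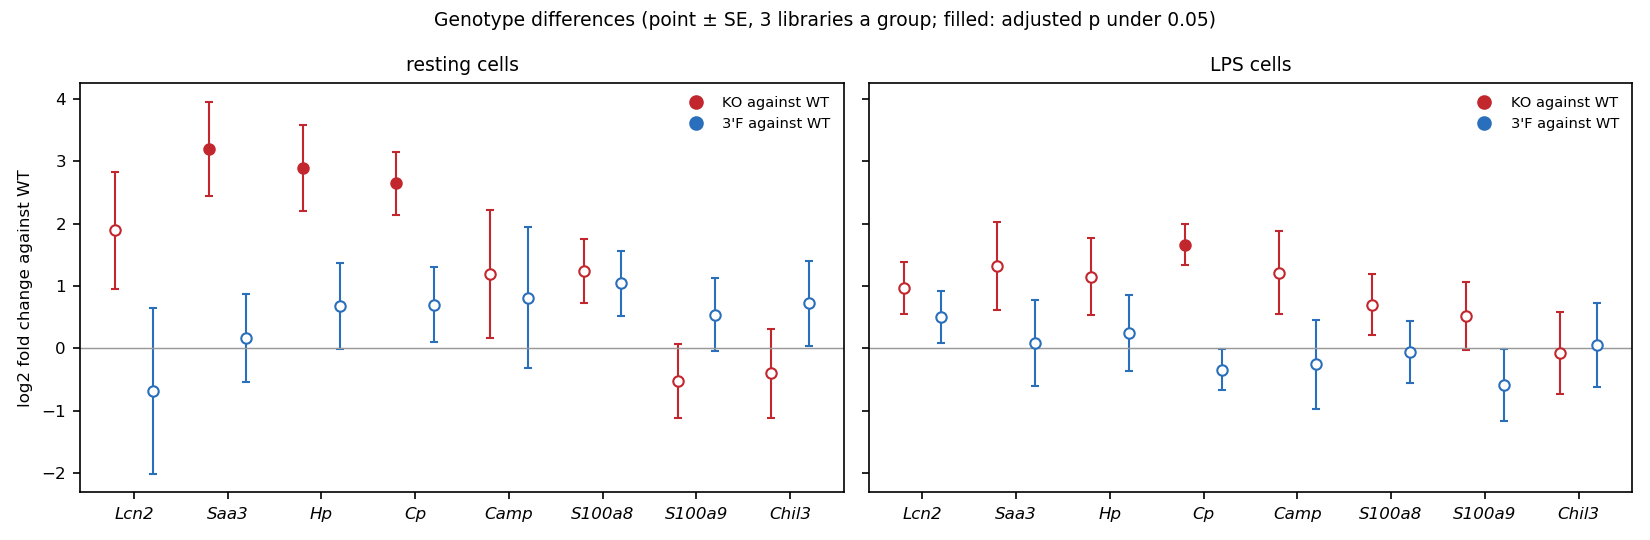
Log2 fold change of KO and 3'F cells against WT cells, at rest and with LPS, with its standard error; filled points passed an adjusted p of 0.05. The KO points of Saa3, Hp and Cp lie between 2.65 and 3.20 at rest and between 1.15 and 1.66 with LPS, and the 3'F points of these genes between −0.34 and 0.70.

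No gene of the group was called between 3'F and WT. At rest 0 of 8 were called and 0 had an unadjusted p under 0.05, against 0% of all tested genes called. With LPS 0 of 8 were called and 0 had an unadjusted p under 0.05, against 0.00881% of all tested genes (1 gene). DESeq2 and limma-voom also called 0 of the genes in both states. A difference that misses the threshold is not shown to be absent, and the 95% intervals of the log2 difference with LPS ran from −1.38 to 1.55 for Saa3, −1.04 to 1.53 for Hp, −1.04 to 0.35 for Cp and −0.39 to 1.39 for Lcn2. At rest they ran from −1.33 to 1.66 for Saa3, −0.78 to 2.15 for Hp and −0.57 to 1.97 for Cp. S100a9 was lower in all 3 3'F LPS libraries than in any WT LPS library (4.56 ± 0.509 against 6.90 ± 1.81 CPM), with a log2 difference of −0.58 ± 0.58 (adjusted p = 1). It was the 1 gene of the 8 without overlap there, against 7.87% of all tested genes in either direction.

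The LPS responses of the genotypes were compared by interaction terms. None of the 8 genes was called for KO against WT (0.00881% of all tested genes, 1 gene) or for 3'F against WT (0% of all tested genes), and 0 had an unadjusted p under 0.05 in either. The fold response was smaller in KO by 1.87 ± 0.99 on the log2 scale for Saa3, 1.74 ± 0.90 for Hp and 0.99 ± 0.61 for Cp (each with an adjusted p of 1). With resting KO replicate 3 left out these differences were −0.04 for Saa3, −0.02 for Hp and −0.32 for Cp. In all fits run, with other tools and with libraries left out, 0 of the 8 genes were called in either interaction.

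**Figure D4:**
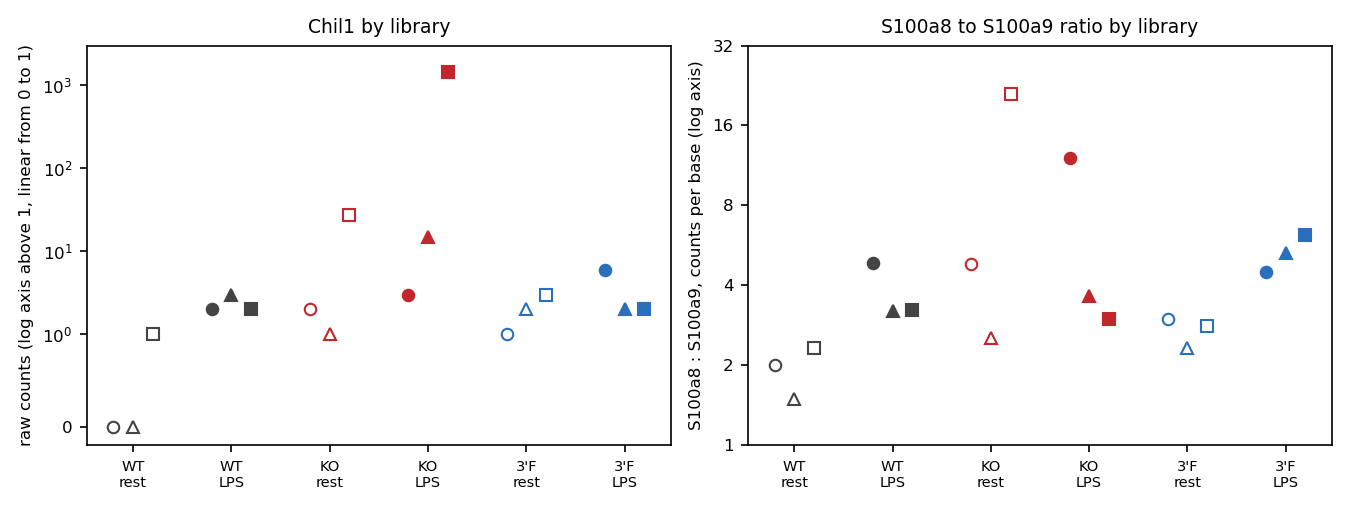
Left, raw Chil1 counts in each library (log axis above 1): 1442 counts in KO LPS replicate 3 and 27 in resting KO replicate 3 stand above all other libraries. Right, the ratio of S100a8 to S100a9 counts per base of exon (log axis): resting KO replicate 3 (21.0) and KO LPS replicate 1 (12.1) lie above all other libraries. Circles, triangles and squares are replicates 1, 2 and 3.

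Other genes of the same families were counted from fixed lists. Of 24 other acute-phase genes 5 passed the filter, and 3 of the 5 (Saa1, Serpina3g and Serpina3f, below the level set for naming and named after their values were seen) were called higher with LPS in each genotype. Of all tested genes 16.3% were called higher in WT, 14.3% in KO and 17.2% in 3'F. These 3 genes had few counts at rest and passed the filter only because of their LPS libraries. Their calls as higher with LPS were favoured by that filter, so this count is a description only. Saa1, the serum amyloid A of liver, had 0 or 1 count in every resting library and 75, 97 and 99 counts in KO LPS libraries, 58, 17 and 48 in WT and 24, 90 and 19 in 3'F. C-reactive protein (Crp) and the fibrinogen gene Fga had 1 count or none in every library. None of the 5 was called between genotypes.

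Of 18 other S100 proteins and alarmins 10 were tested, and none was called higher in any comparison. Anxa1, annexin A1, a mediator that limits inflammation, fell with LPS by 0.59 on the log2 scale in WT (SE 0.12, adjusted p = 0.00172), 0.79 in KO (0.000139) and 0.89 in 3'F (4.76e-05). It was also lower in KO cells, by −0.41 ± 0.12 from WT at rest (adjusted p = 0.0426) and −0.61 ± 0.12 with LPS (0.00782). In 3'F cells S100a4 (−1.13 ± 0.37, adjusted p = 0.0305) and S100a1 (−0.75 ± 0.26, 0.0381) were called lower with LPS as well, but resting 3'F replicate 3 was far above the other resting libraries in both, and without it neither was called (−0.27 for S100a4, adjusted p = 0.336, and −0.25 for S100a1, 0.24). Of the 8 other chitinases and chitinase-like genes, Ctbs and Chid1 were tested and neither was called in any comparison. Chit1, the chitinase made by macrophages in man, and Chia1, acidic chitinase, had 4 counts or fewer in every library.

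Of 13 tested antimicrobial and granule genes, 5 rose and 1 fell with LPS in WT cells, 3 and 1 in KO and 4 and 1 in 3'F. Over all tested genes 16.3% rose and 12.3% fell in WT, 14.3% and 12.6% in KO and 17.2% and 14% in 3'F. Slpi, an inhibitor of neutrophil proteases, had 2.43, 1.05 and 3.48 CPM in resting WT cells and 34.1, 36.7 and 40.3 with LPS (log2 fold change 4.02 ± 0.71, adjusted p = 0.000566). Resting KO cells had 6.31, 5.35 and 55.2 CPM of Slpi, the last of them in resting KO replicate 3 and above every WT LPS library. At rest 5 of the 13 were called higher in KO than in WT, against 5.12% of all tested genes, among them Slpi (3.25 ± 0.71, adjusted p = 0.0101), Bst1, an ectoenzyme of myeloid cells (1.21 ± 0.37, 0.0484), Lyz1, a lysozyme (1.04 ± 0.25, 0.0156), and Mmp8, a collagenase (0.97 ± 0.21, 0.00982). Without resting KO replicate 3 the Slpi difference was 1.36 (adjusted p = 0.0144) and Bst1 was not called (0.37, 0.33), which left 4 of the 13, against 3.69% of all tested genes called higher in that fit. With LPS 1 of the 13, Lyz1, was called higher in KO (0.98 ± 0.25, adjusted p = 0.0325), against 1.89% of all tested genes.

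Among the regulators known to drive these genes, 13 of 20 tested rose with LPS in WT, 10 in KO and 13 in 3'F, and 1, 2 and 1 fell. Of all tested genes 16.3%, 14.3% and 17.2% were called higher and 12.3%, 12.6% and 14% lower. In WT the increase was 4.33 ± 0.77 on the log2 scale for Il1b, an inducing cytokine (adjusted p = 0.000593), and 3.67 ± 0.35 for Socs3, a brake on STAT3 (1.55e-06). At rest 7 of 20 were called higher in KO than in WT and none lower, and 10 of 20 without resting KO replicate 3, against 5.12% and 3.69% of all tested genes called higher. They included Bcl3, an atypical IκB protein (1.24 ± 0.34, adjusted p = 0.0316), and Nfkbiz, which encodes the IκBζ that Lcn2 induction needs (1.24 ± 0.29, 0.0133). Cebpb, an activator of acute-phase genes, differed by 0.90 ± 0.16 (adjusted p = 0.003) and the cytokine gene Tnf by 0.83 ± 0.21 (0.0193). With LPS Cebpd (0.64 ± 0.17, adjusted p = 0.0408) and Nfkb1 (0.59 ± 0.11, 0.00612) were called higher in KO, where 1.89% of all tested genes were called higher. None of the 20 was called between 3'F and WT in either state.

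Of 19 tested receptors and partners, 6 rose and 2 fell with LPS in WT, 4 and 2 in KO and 5 and 2 in 3'F. Of all tested genes 28.5%, 26.9% and 31.2% were called in either direction, and the shares in KO and 3'F were near these. Fpr2, a receptor for serum amyloid A, rose by 6.37 ± 0.62 on the log2 scale in WT (adjusted p = 2.01e-06), 3.79 ± 0.52 in KO (5.02e-05, and 4.88 without resting KO replicate 3) and 6.31 ± 0.62 in 3'F (2.03e-06). Slc40a1, the iron exporter ferroportin, fell by 2.73 in WT (SE 0.52, adjusted p = 0.00105). In resting cells 3 of the 19 were called higher in KO, against 5.12% of all tested genes. They were Fpr2 (3.86 ± 0.58, adjusted p = 0.00155), the related Fpr1 (3.43 ± 0.64, 0.00425) and Tlr2 (1.19 ± 0.24, 0.00584). Without resting KO replicate 3 they were still called, with differences of 2.79, 2.02 and 1.47, against 3.69% of all tested genes called higher in that fit. With LPS Cd163, the scavenger receptor for haptoglobin bound to haemoglobin, was the 1 called (0.97 ± 0.25, adjusted p = 0.0346), against 1.89% of all tested genes called higher.

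Markers of cells that store several of these proteins were measured beside them. The 16 neutrophil and precursor markers summed to 56.3 to 70.9 CPM in resting WT libraries, 104 to 116 in resting KO, 67.8 to 125 in WT LPS, 151 to 206 in KO LPS, 50.1 to 79.2 in resting 3'F and 107 to 129.985 in 3'F LPS. Csf3r and Mmp8 made up most of this. The other 14 summed to 6.87 to 10.0 CPM in resting WT, 10.4 to 25.3 in resting KO, 7.47 to 8.60 in WT LPS, 5.58 to 12.9 in KO LPS, 6.77 to 8.43 in resting 3'F and 5.64 to 6.03 in 3'F LPS. Ly6g, which defines neutrophils, was at 0.128 CPM or less in every library and at 0 in all 9 resting libraries, and Elane was at 1.17 CPM or less. Of the 9 neutrophil markers tested, 3 were called higher in KO than in WT at rest, against 5.12% of all tested genes. These were Mmp8, Cd177 (2.39 ± 0.56, adjusted p = 0.0135) and Padi4 (1.48 ± 0.42, 0.0362), named here after their values were seen. Mpo (−2.57, adjusted p = 0.175) and Ctsg (−0.48, 0.823) were lower in KO, and Csf3r, Ltf, Cebpe and Ngp were higher, none of them called. Without resting KO replicate 3, Cd177 (1.84, adjusted p = 0.0496) was still called and Padi4 (0.90, 0.168) was not. The 4 monocyte markers summed to 28.5 to 37.2 CPM in resting WT, 71.4 to 85.7 in resting KO, 33.1 to 55.0 in resting 3'F, 42.9 to 96.5 in WT LPS, 128 to 192 in KO LPS and 54.1 to 70.2 in 3'F LPS. Ly6c2, the monocyte surface antigen that LPS and interferon also raise, was called higher in KO at rest (3.10 ± 0.74 against WT, adjusted p = 0.0155), with 3.09, 3.29 and 28.5 CPM in KO, the last in resting KO replicate 3, without which the difference was 1.32 (0.057). The monocyte and neutrophil sums were higher in KO where Saa3, Hp and Cp were. With LPS the sum of the 14 neutrophil markers without Csf3r and Mmp8 overlapped between KO and WT. The part of such cells in the differences between genotypes was not tested.

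Over the 18 libraries the profile closest to Saa3, by root mean square difference of centred log2 CPM, was that of Hp (0.72), and the closest to Hp after the adenosine receptor gene Adora2a (0.48) was that of Cp (0.56). For Cp the nearest were Hp (0.56) and Adora2a (0.59), for Lcn2 the chemokine Ccl5 (0.90) and Saa3 (0.98), and for S100a8 Tspo (0.34), while S100a9 was nearest to Lsm7 (0.54). Chil1 had no close profile, its nearest being Ctse at 1.82. These likenesses are descriptions and share the same libraries.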

How the data were processed

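RNA from 18 libraries (6 groups of 3) was depleted of rRNA and made into directional libraries. Per the labels and the methods of the study, the authors trimmed reads with cutadapt 1.8.3, discarded rDNA reads, aligned the rest to mm10 with HISAT2 2.1.0 and counted them by strand per gene of Gencode M15 with featureCounts 1.5.3, leaving out low mapping qualities. The deposited values are raw counts per protein-coding gene, with an exon length for each gene.

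The tests were run in R 4.3.3. The filter was filterByExpr of edgeR 4.0.16 with the 6 groups (minimum count 10). Libraries were scaled by TMM (factors 0.812 to 1.15) and fitted together by edgeR's quasi-likelihood method, with 1 coefficient a group and no covariate. The 11 two-sided comparisons were adjusted by Benjamini-Hochberg over 11357 genes and called under 0.05. The SE is the log2 fold change divided by the square root of F, and 95% intervals use the t quantile of the fit. CPM is per 1000000 of the scaled library size. Groups at 3 counts or fewer in every library were treated as at the floor; floors cover counting error only. The mice were separate animals, but cultures of a mouse may share it between states. No pair of replicates agreed within sampling noise (chi-square per degree of freedom at least 6.95). Alternatives used DESeq2 1.42.0, limma 3.58.1, other scalings, no filter, fewer groups, a replicate block and left-out libraries. Positions and 3′ UTRs come from GENCODE M21, matched by gene ID, and upstream windows from RefSeq, both of the same build.

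The 10 genes and the other lists were chosen with earlier results of these data known, that of Chil1 in a KO LPS library among them. Chil1 was therefore left out of the counts of calls, except in those under other settings given below. All 10 were described. From other lists, called genes with a mean log2 CPM of at least 1 were named, at most 4 per list and sentence and largest first, and each tested gene's nearest profiles, at most 2, were named. Scripts were tested on simulated data.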

Additional observations from a re-analysis of the deposited data

Results flagged for a closer look

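For Cp, every 3'F library lay on 1 side of the WT mean at rest and on the other side with LPS: the ratio of mean CPM in 3'F to WT was 1.72 at rest, where all 3 3'F libraries were above the WT mean, and 0.787 with LPS, where all 3 were below it. The interaction term for this difference was −1.04 ± 0.68 on the log2 scale (edgeR quasi-likelihood test, unadjusted p = 0.147) and was not called after adjustment over all genes. The single libraries overlapped in both states. At rest 3'F replicate 2 (1.10 CPM) lay below WT replicate 3 (1.26). With LPS WT replicate 2 (43.7 CPM) lay below every 3'F library. The resting values rest on 9 to 29 counts a library in 3'F cells and 10 to 13 in WT cells.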

How the results depend on the processing

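Of 680 values under other settings, 645 kept their call and, where called, their sign; 13 calls were lost, 22 were gained and 0 reversed. Sign changes among uncalled differences (16 there and 54 with libraries left out) were not counted against them. Of 801 values with libraries left out, 34 lost a call, 15 gained one and 1 reversed: the Chil1 response in KO, which ran from −0.54 without KO LPS replicate 3 to 8.28 without resting KO replicate 3. Counts here include Chil1, for which the test is a description only. With the compared groups alone the genes called, of 9 tested, were 1 for KO against WT at rest, 6 with LPS, 0 for KO against 3'F at rest and 5 with LPS. Of all tested genes 9.16% were called for KO against WT with LPS and 14.7% for KO against 3'F with LPS. DESeq2 called 1 for KO against WT and 1 for KO against 3'F with LPS (Chil1 has no adjusted p there), and limma-voom with quality weights 4 and 5. With libraries left out, the counts ran from 1 to 3 for KO against WT at rest, 0 to 6 with LPS, 0 to 4 for KO against 3'F at rest and 1 to 4 with LPS; the fit without both resting libraries, chosen after seeing the data, gave 6 for KO against WT with LPS, 0 for KO against 3'F at rest and 4 with LPS. The lower counts in left-out fits come with fewer samples; other causes were not tested. Counts for LPS ran from 4 to 6 in WT, 4 to 7 in KO and 4 to 6 in 3'F. The calls over all 11357 tested genes moved too. With LPS they ran from 185 to 1617 for KO against WT and from 142 to 1389 for KO against 3'F. At rest they ran from 401 to 1669 and from 735 to 1818. For the LPS responses they ran from 2220 to 4764 in WT, 2154 to 5036 in KO and 2498 to 4001 in 3'F. The counts in this paragraph are therefore not read as results about these genes.

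The labels do not say that equal replicate numbers mark 1 animal. Deviations of same-numbered resting and LPS libraries correlated at 0.0431 to 0.291, over 0.1 in 4 of 9 pairs, and 14 of 18 libraries correlated best with their own number. With a replicate block the Camp response in WT missed the threshold (2.80, adjusted p = 0.0522), which left 4 of the genes called; no other call among the 9 genes changed. Low counts limit Chil1, Chil3, Ptx3 and Camp, and resting Lcn2 and Cp.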
